A study of Mus musculus with 8 samples.

Results

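The collagen genes encode the alpha chains of the collagen family, and they were taken as the protein-coding genes of the GENCODE vM1 mouse annotation whose symbol is Col, digits, a, digits. This gave 43 genes among 22380 protein-coding genes. For each gene, the called ChIP-seq peaks (intervals) that touched the gene body or the 50 kb on either side of it were counted. The study asked how signaling through the retinoid X receptor (RXR) changes the genomic location of myogenin and p300 early in muscle differentiation. It used C2C12, an established mouse myoblast line from strain C3H that forms muscle fibers when serum is lowered. Of the 8 samples, 4 came with a peak list and were used: myogenin in control (Myog_Ctl) and bexarotene-treated cells (Myog_Bex), and p300 in control (p300_Ctl) and bexarotene-treated cells (p300_Bex). All 4 libraries came from cells differentiated for 24 h, and the Bex cells received 50 nM bexarotene, an RXR-selective agonist, where the Ctl cells did not. The input and H3K27me3 samples were not analysed here.

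There was 1 library per condition, so no test between conditions was possible and no p-value is given. The lists held 5912 Myog_Ctl, 6642 Myog_Bex, 22051 p300_Ctl and 9154 p300_Bex intervals as positions in mm9, with no tag count or score. The lists therefore do not give the depth of each library, and a bexarotene effect, a difference in depth and a difference in peak calling cannot be told apart. Exact 95% intervals, binomial for shares and Poisson for densities, cover counting error over intervals and not the spread between cultures. The Poisson ranges also treat peaks as independent, and do not cover their clustering or the spread between genes. As a check of the cell state, 8 of 10 muscle differentiation genes (Myog, Des, Ckm, Acta1, Myh3, Tnnt1, Tnnt2, Mybph, Chrna1 and Cdkn1a) had a Myog_Ctl interval within 50 kb, against 32.4% of all protein-coding genes, and 8 had a Myog_Bex interval, against 33.0%. Ckm had none in either list.

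Collagens are triple-helical proteins of the extracellular matrix. Fibrillar collagens form the cables of connective tissue, type IV collagens form the sheet of the basement membrane that surrounds each muscle fiber, and type VI collagens form beaded filaments between the basement membrane and the surrounding matrix. Myogenin is a basic helix-loop-helix transcription factor that binds E-box sequences and drives the late steps of muscle differentiation, while p300 is a histone acetyltransferase found at active enhancers and promoters.

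The 10 myogenin intervals inside collagen genes that held at least 2 E-boxes over their length are shown first, because they carry the motif that the antibody target is known to bind. One E-box searched was the palindrome CAGCTG. The other was CACCTG, which reads CAGGTG when it lies on the minus strand. The AP-1 motif was TGACTCA on either strand, and on the minus strand it reads TGAGTCA. All of these are in capitals, and each sequence is the plus strand of mm9, cut to the central 300 bases where the interval was longer. Col17a1 encodes a transmembrane collagen of epithelial hemidesmosomes, Col13a1 a transmembrane collagen found at the neuromuscular junction, Col23a1 another transmembrane collagen, Col18a1 and Col15a1 basement-membrane-associated multiplexins, Col5a1 a fibrillar chain that nucleates collagen fibrils, Col14a1 and Col19a1 fibril-associated collagens, and Col4a2 a basement membrane chain. A further Col4a2 interval, with 1 E-box and an overlapping p300 interval, was added last after its values were seen, because the gene had the most p300 intervals of the family.
Col17a1 intron 37, chr19:47729436-47729735: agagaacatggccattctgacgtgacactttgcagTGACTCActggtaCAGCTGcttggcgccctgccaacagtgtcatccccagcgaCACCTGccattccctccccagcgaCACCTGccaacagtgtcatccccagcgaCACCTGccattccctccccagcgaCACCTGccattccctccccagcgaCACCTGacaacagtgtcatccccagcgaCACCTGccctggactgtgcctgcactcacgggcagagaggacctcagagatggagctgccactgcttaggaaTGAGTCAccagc
Col18a1 intron 2, chr10:76592834-76593110: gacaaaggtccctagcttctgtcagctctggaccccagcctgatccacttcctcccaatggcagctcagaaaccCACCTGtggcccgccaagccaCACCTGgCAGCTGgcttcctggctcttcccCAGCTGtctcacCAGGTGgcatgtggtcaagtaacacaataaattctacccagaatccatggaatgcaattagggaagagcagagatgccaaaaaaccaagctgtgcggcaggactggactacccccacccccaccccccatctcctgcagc
Col23a1 intron 2, chr11:51307786-51307953: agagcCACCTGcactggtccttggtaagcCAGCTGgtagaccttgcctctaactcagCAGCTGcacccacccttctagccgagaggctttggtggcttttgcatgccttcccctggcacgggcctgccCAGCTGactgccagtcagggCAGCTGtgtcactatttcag
Col13a1 intron 2, chr10:61406263-61406562: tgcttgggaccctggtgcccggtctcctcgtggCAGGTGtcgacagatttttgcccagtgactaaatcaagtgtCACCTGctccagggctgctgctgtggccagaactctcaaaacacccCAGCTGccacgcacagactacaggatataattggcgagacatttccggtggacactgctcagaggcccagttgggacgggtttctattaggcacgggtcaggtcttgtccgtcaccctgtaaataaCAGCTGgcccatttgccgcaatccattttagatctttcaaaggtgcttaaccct
Col5a1 intron 4, chr2:27803574-27803745: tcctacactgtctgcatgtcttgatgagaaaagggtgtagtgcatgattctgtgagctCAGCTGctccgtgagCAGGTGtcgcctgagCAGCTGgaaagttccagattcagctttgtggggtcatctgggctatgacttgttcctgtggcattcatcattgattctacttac
Col15a1 intron 28, chr4:47306656-47306955: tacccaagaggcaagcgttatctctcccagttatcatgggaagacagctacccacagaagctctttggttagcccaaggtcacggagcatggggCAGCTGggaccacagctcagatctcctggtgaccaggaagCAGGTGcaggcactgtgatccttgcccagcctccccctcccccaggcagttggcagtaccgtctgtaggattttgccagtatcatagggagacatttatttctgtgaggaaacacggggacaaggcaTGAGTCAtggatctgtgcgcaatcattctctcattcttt
Col14a1 intron 5, chr15:55187643-55187942: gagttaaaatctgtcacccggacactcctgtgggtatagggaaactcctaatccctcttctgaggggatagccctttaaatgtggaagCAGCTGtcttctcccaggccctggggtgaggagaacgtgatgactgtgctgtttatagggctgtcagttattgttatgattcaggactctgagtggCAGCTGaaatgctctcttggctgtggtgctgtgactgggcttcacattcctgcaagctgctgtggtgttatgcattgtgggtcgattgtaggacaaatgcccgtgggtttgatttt
Col4a2 intron 4, chr8:11382479-11382752: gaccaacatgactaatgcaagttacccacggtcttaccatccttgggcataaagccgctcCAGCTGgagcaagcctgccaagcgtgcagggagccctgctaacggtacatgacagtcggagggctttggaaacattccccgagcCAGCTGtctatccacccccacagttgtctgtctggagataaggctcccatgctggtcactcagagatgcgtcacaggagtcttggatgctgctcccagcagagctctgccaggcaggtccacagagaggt
Col19a1 intron 16, chr1:24371734-24371964: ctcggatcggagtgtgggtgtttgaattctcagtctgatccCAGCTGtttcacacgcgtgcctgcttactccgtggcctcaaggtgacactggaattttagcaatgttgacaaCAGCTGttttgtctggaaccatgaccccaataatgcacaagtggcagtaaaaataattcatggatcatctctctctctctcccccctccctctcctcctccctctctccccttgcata
Col19a1 intron 18, chr1:24343034-24343205: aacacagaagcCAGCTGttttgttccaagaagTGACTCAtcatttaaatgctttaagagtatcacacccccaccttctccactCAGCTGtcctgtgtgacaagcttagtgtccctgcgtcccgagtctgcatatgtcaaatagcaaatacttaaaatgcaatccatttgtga
Col4a2 intron 4, added, chr8:11372104-11372378: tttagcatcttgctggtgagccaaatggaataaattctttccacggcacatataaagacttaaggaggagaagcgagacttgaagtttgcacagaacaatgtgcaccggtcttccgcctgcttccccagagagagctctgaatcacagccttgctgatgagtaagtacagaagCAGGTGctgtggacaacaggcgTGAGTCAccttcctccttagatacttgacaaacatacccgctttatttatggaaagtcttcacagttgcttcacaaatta
Col17a1 held 7 E-boxes, 1 of them CAGCTG and the others copies of CACCTG in a repeated stretch. The Col18a1 and Col23a1 sequences held 5 each, and 4 of the 5 in Col23a1 were CAGCTG. The Col17a1, Col18a1, Col13a1, Col15a1, Col19a1 intron 16 and added Col4a2 intervals were called in both conditions (shared). The Col23a1, Col14a1 and first Col4a2 intervals were called only with bexarotene, and the Col5a1 and Col19a1 intron 18 intervals only in control. Of the 11, only the Col18a1, Col15a1 and both Col4a2 intervals overlapped a p300 interval of the same condition. Over whole lists, 47.7% of Myog_Ctl and 60.3% of Myog_Bex intervals held at least 1 of these E-boxes within 50 bp of the center. A match to these letters is a description of the sequence and not a measured site.

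The p300 lists were dense around collagen genes and the myogenin lists were not. At least 1 p300_Ctl interval lay within 50 kb of 36 of the 43 collagen genes (83.7%), where 53.7% of all protein-coding genes had one. For p300_Bex the count was 30 genes (69.8%), against 35.2% of all genes. At least 1 Myog_Ctl interval lay near 15 collagen genes (34.9%), against 32.4% of all genes, and 15 genes (34.9%) had a Myog_Bex interval, against 33.0%. Myogenin intervals thus touched collagen genes about as often as other genes, and p300 intervals more often.

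Collagen genes are long, with a median gene body of 114 kb against 15.4 kb for all protein-coding genes, so the intervals were also counted per Mb of window, with overlapping windows merged and each interval counted once. The 43 genes gave 35 windows that covered 8.85 Mb. They held 193 p300_Ctl intervals, or 21.8 per Mb (18.8 to 25.1), against 10.5 per Mb in the windows of all protein-coding genes, a ratio of 2.09 (1.80 to 2.40). They held 80 p300_Bex intervals, or 9.04 per Mb (7.17 to 11.3), against 4.32 per Mb, a ratio of 2.10 (1.66 to 2.61). The density of p300 was therefore higher than the average gene window in both conditions by similar factors.

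The corresponding myogenin counts were 26 Myog_Ctl intervals, or 2.94 per Mb (1.92 to 4.31), against 3.13 per Mb, and 25 Myog_Bex intervals, or 2.83 per Mb (1.83 to 4.17), against 3.45 per Mb. Both Poisson intervals for myogenin include the average of all genes. Without Col4a1 and Col4a2, the pair with most p300 intervals, the p300 ratios were 1.88 in control and 1.86 with bexarotene. The sequence from 50 kb to 1 Mb around the collagen genes held 11.9 p300_Ctl and 5.29 p300_Bex intervals per Mb, so the collagen windows were also denser than their own surroundings, by 1.84 and 1.71 times. For myogenin the surroundings held 3.89 Myog_Ctl and 4.16 Myog_Bex intervals per Mb, and the collagen windows 0.755 and 0.679 times these densities.

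**Figure D1:**
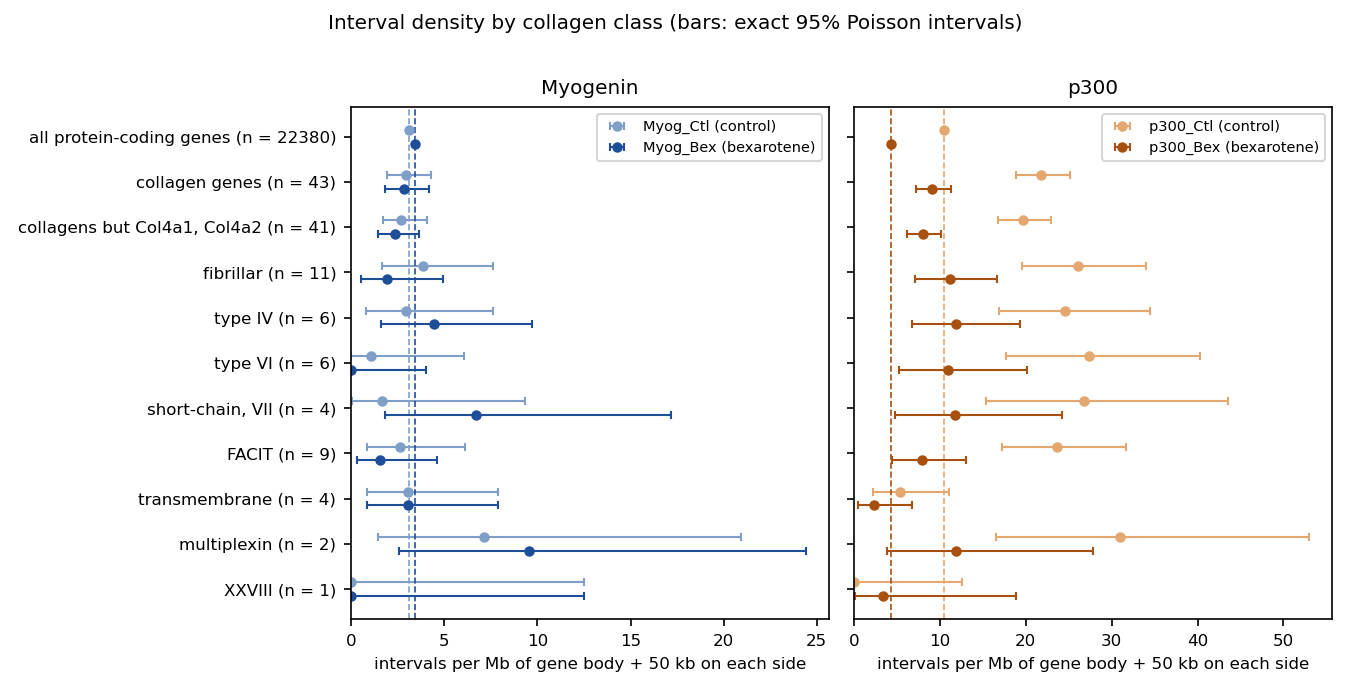
Intervals per Mb of gene body plus 50 kb on each side (x axis) for all protein-coding genes, all 43 collagen genes, the collagens without Col4a1 and Col4a2, and each collagen class, for myogenin (left) and p300 (right). Points are densities in 1 library each, bars are exact 95% Poisson intervals and dashed lines mark the density over all protein-coding genes. The p300 points of most classes lie to the right of the dashed lines, and the 4 transmembrane collagens lie to the left.

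The p300_Bex list was shorter than the p300_Ctl list around the collagen genes in the same proportion as overall. There were 0.415 times as many p300_Bex as p300_Ctl intervals near collagen genes and 0.415 times as many in the whole lists. When intervals that overlapped by at least 1 bp were joined, the collagen windows held 204 p300 regions, of which 124 were called only in control, 69 in both conditions and 11 only with bexarotene. Control-only intervals made up 64.2% (57.0 to 71.0) of the p300_Ctl intervals near collagens and 67.3% of the whole list. The p300_Bex count was lower than the p300_Ctl count at 30 collagen genes (69.8%, against 43.8% of all genes). Only a gene with a p300_Ctl interval can have a lower count. Such genes were 36 of the 43 collagen genes (83.7%) and 12025 of all 22380 (53.7%). The higher share is therefore not read as a more frequent decrease at collagen genes. The p300_Bex count was higher at 2 (4.65%, against 4.58%), Col2a1 and Col28a1, which were named after their values were seen. The counts were equal and above 0 at 5 genes, a pattern that was not counted over all genes and is not read as a result. Control-only p300 intervals were found at 30 genes (69.8%, against 47.5% of all genes), shared ones at 29 (67.4%, against 27.7%) and bexarotene-only ones at 9 (20.9%, against 14.3%). Control-only and shared intervals are likewise possible only at genes with a p300_Ctl interval.

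Near collagen genes, as over the whole lists, most myogenin regions were called in 1 condition only. The 41 myogenin regions near collagens comprised 16 control-only, 10 shared and 15 bexarotene-only regions, and the 9553 of the whole lists 2920, 2988 and 3645. Control-only intervals made up 61.5% (40.6 to 79.8) of the Myog_Ctl intervals near collagens and 49.4% of the whole list. Bexarotene-only intervals made up 60.0% (38.7 to 78.9) of the Myog_Bex intervals there and 54.9% of the whole list, but 38.5% (5 of 13) when gene bodies alone were counted. Both exact intervals for the 50 kb windows include the whole-list share. Control-only intervals lay near 11 genes (25.6%, against 22.9% of all genes) and bexarotene-only intervals near 11 genes (25.6%, against 25.1%), while shared intervals lay near 8 genes (18.6%, against 17.5%). Of the 19 collagen genes with any myogenin interval (44.2%, against 41.4% of all genes), 11 had one in both lists (25.6% of the 43, against 23.9% of all genes), 4 only in control (9.3%, against 8.44%) and 4 only with bexarotene (9.3%, against 9.02%), which is close to the background. The control-only genes were Col5a1, Col4a3, Col6a3 and Col9a2, and the bexarotene-only genes Col5a3, Col4a1, Col4a6 and Col23a1. At Col1a1, Col11a2 and Col24a1 both lists held an interval, but none was shared. This pattern was not counted over all genes. The shares of genes with both lists (25.6%) and with a shared interval (18.6%) were close to the 23.9% and 17.5% of all genes.

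A further 19 genes (44.2%, against 21.1% of all genes) had a p300_Ctl interval and no myogenin interval in either list. Only 4 genes (9.3%, against 36.0% of all genes) had no interval of any list: Col9a1 and Col10a1, which encode cartilage collagens, Col11a1, a minor fibrillar chain of cartilage, and Col20a1. These 4 were named after their values were seen. Since 15 of the 43 genes lie in windows that overlap those of another member, a single interval can count for more than 1 gene. The 193 p300_Ctl intervals gave 206 counts over genes, the 80 p300_Bex intervals gave 86 and the 25 Myog_Bex intervals gave 26.

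**Figure D2:**
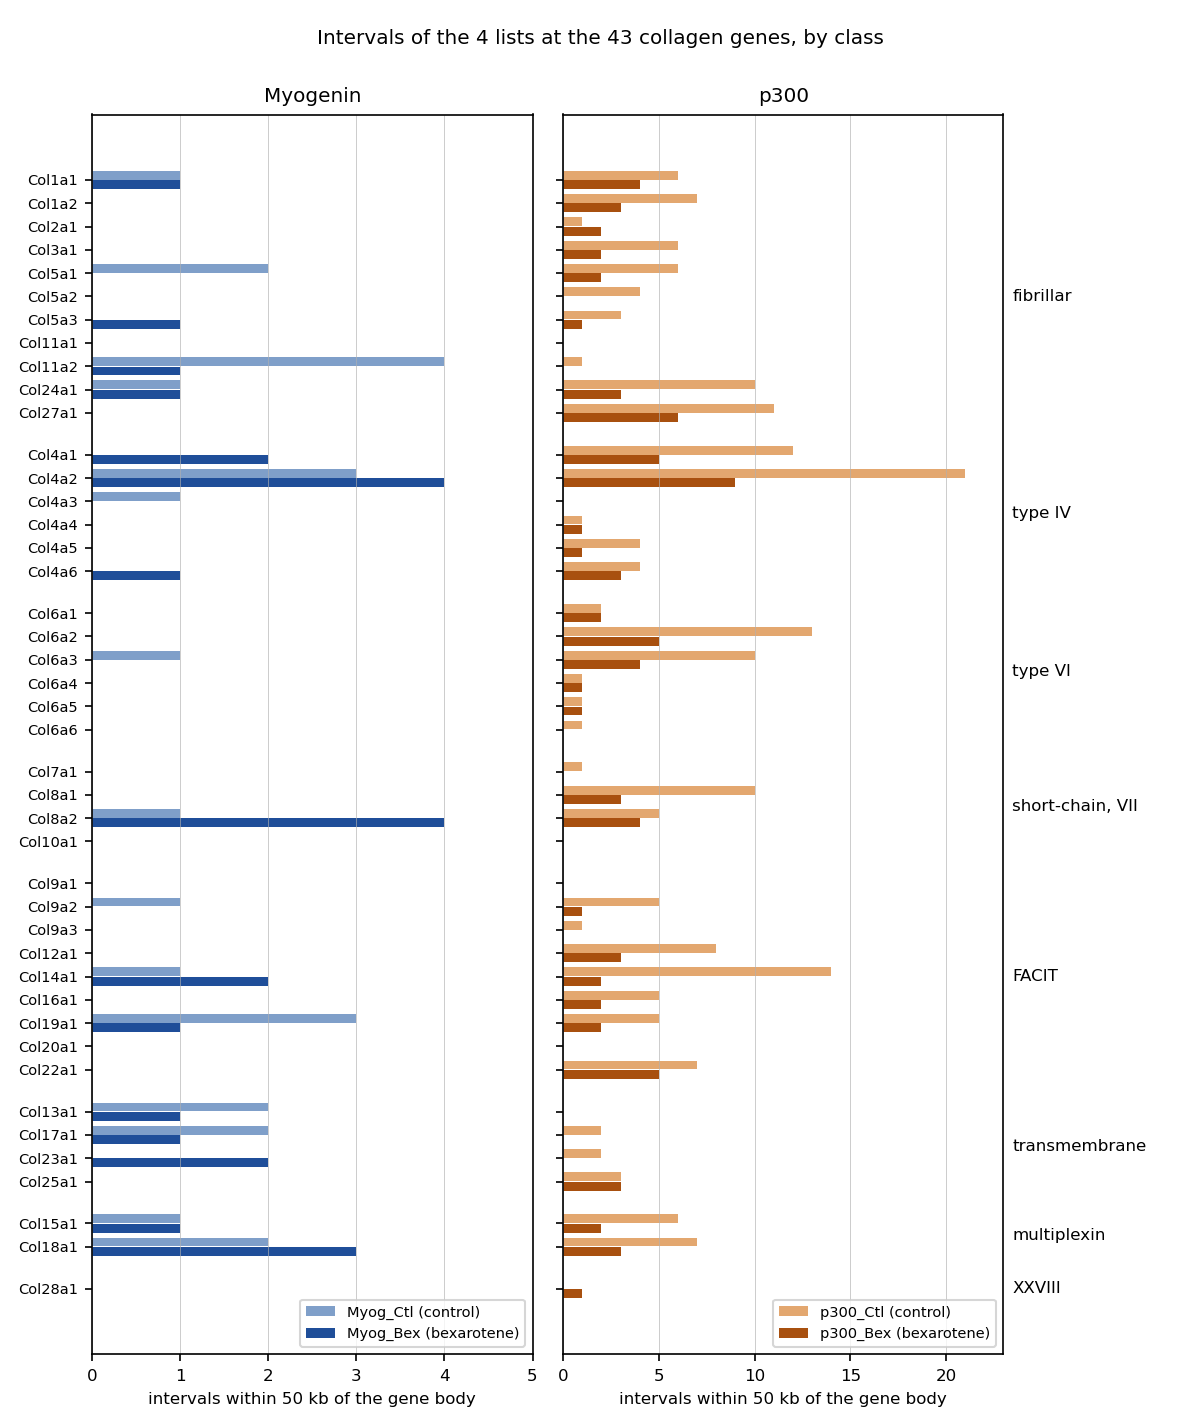
Number of intervals within 50 kb of the gene body (x axis) for each of the 43 collagen genes (y axis), grouped by class, for myogenin (left) and p300 (right); the pale bar is control and the dark bar bexarotene, with 1 library each. Col4a2 had most p300 intervals in both conditions (21 and 9), and no gene had more than 4 myogenin intervals in a list.

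The basement membrane type IV genes included the member with most p300 intervals by raw count, Col4a2. Per Mb of window Col6a2 was ahead, with 102 p300_Ctl and 39.1 p300_Bex intervals against 88.8 and 38.1 at Col4a2. Type IV collagen is encoded by 6 genes in 3 head-to-head pairs. The class windows held 24.5 p300_Ctl (16.9 to 34.4) and 11.9 p300_Bex (6.79 to 19.3) intervals per Mb. For myogenin they held 2.97 Myog_Ctl (0.810 to 7.61) and 4.46 Myog_Bex (1.64 to 9.70) intervals per Mb. Both myogenin ranges include the values over all genes, 3.13 and 3.45 per Mb. Col4a2 (chr8:11312805-11449287, plus strand) had 3 Myog_Ctl, 4 Myog_Bex, 21 p300_Ctl and 9 p300_Bex intervals. Col4a1 (chr8:11198423-11312826, minus strand), its head-to-head neighbor, had 0 Myog_Ctl, 2 Myog_Bex, 12 p300_Ctl and 5 p300_Bex intervals. These chains together form the most widespread basement membrane collagen, and the pair shares part of its window. At least 10 p300_Ctl intervals lay at 8 collagen genes (18.6%), against 1.71% of all genes, and this pair made up 2 of the 8.

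Within Col4a2, 7 of the p300_Ctl and 4 of the p300_Bex intervals lay in intron 4 of its reference transcript. One of these sites, 59.4 kb from the gene start, carried myogenin in both conditions (chr8:11372104-11372378 in control) together with p300 in both, and held a single E-box and an AP-1 motif close to it in the sequence above. A second intron 4 site at 69.8 kb (chr8:11382479-11382752) was called for myogenin only with bexarotene, and lay on a p300 site called in both conditions that was 766 bp long in control. A further site inside the gene, in intron 22 at 109 kb (chr8:11422052-11422223 in control), was called for myogenin in both conditions and held no p300 interval. Just past the 3′ end, 3.94 kb downstream, a control-only myogenin interval (chr8:11453141-11453312) overlapped a p300_Ctl interval.

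In Col4a1 both myogenin intervals were called only with bexarotene. The one in intron 2, 47.5 kb from the gene start (chr8:11265269-11265478), held 1 E-box and no p300 interval in either condition overlapped it. The p300 intervals of Col4a1 clustered in its first introns, with 5 p300_Ctl intervals in intron 1 and 3 in intron 2. No p300 or myogenin interval was centered within 1 kb of a transcription start site (TSS) of Col4a1 or Col4a2.

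The other type IV genes had few intervals. Col4a6, an X-linked chain, had 0 Myog_Ctl, 1 Myog_Bex, 4 p300_Ctl and 3 p300_Bex intervals, and its myogenin interval lay in intron 2 (chrX:137804976-137805143) with 1 E-box. Col4a3, a chain of the glomerular basement membrane, had 1 Myog_Ctl interval and none in the other lists. That interval (chr1:82721537-82721708) lay 2.99 kb past the end of Col4a3 and 100 bp from a TSS of Mff, a mitochondrial fission factor.

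**Figure D3:**
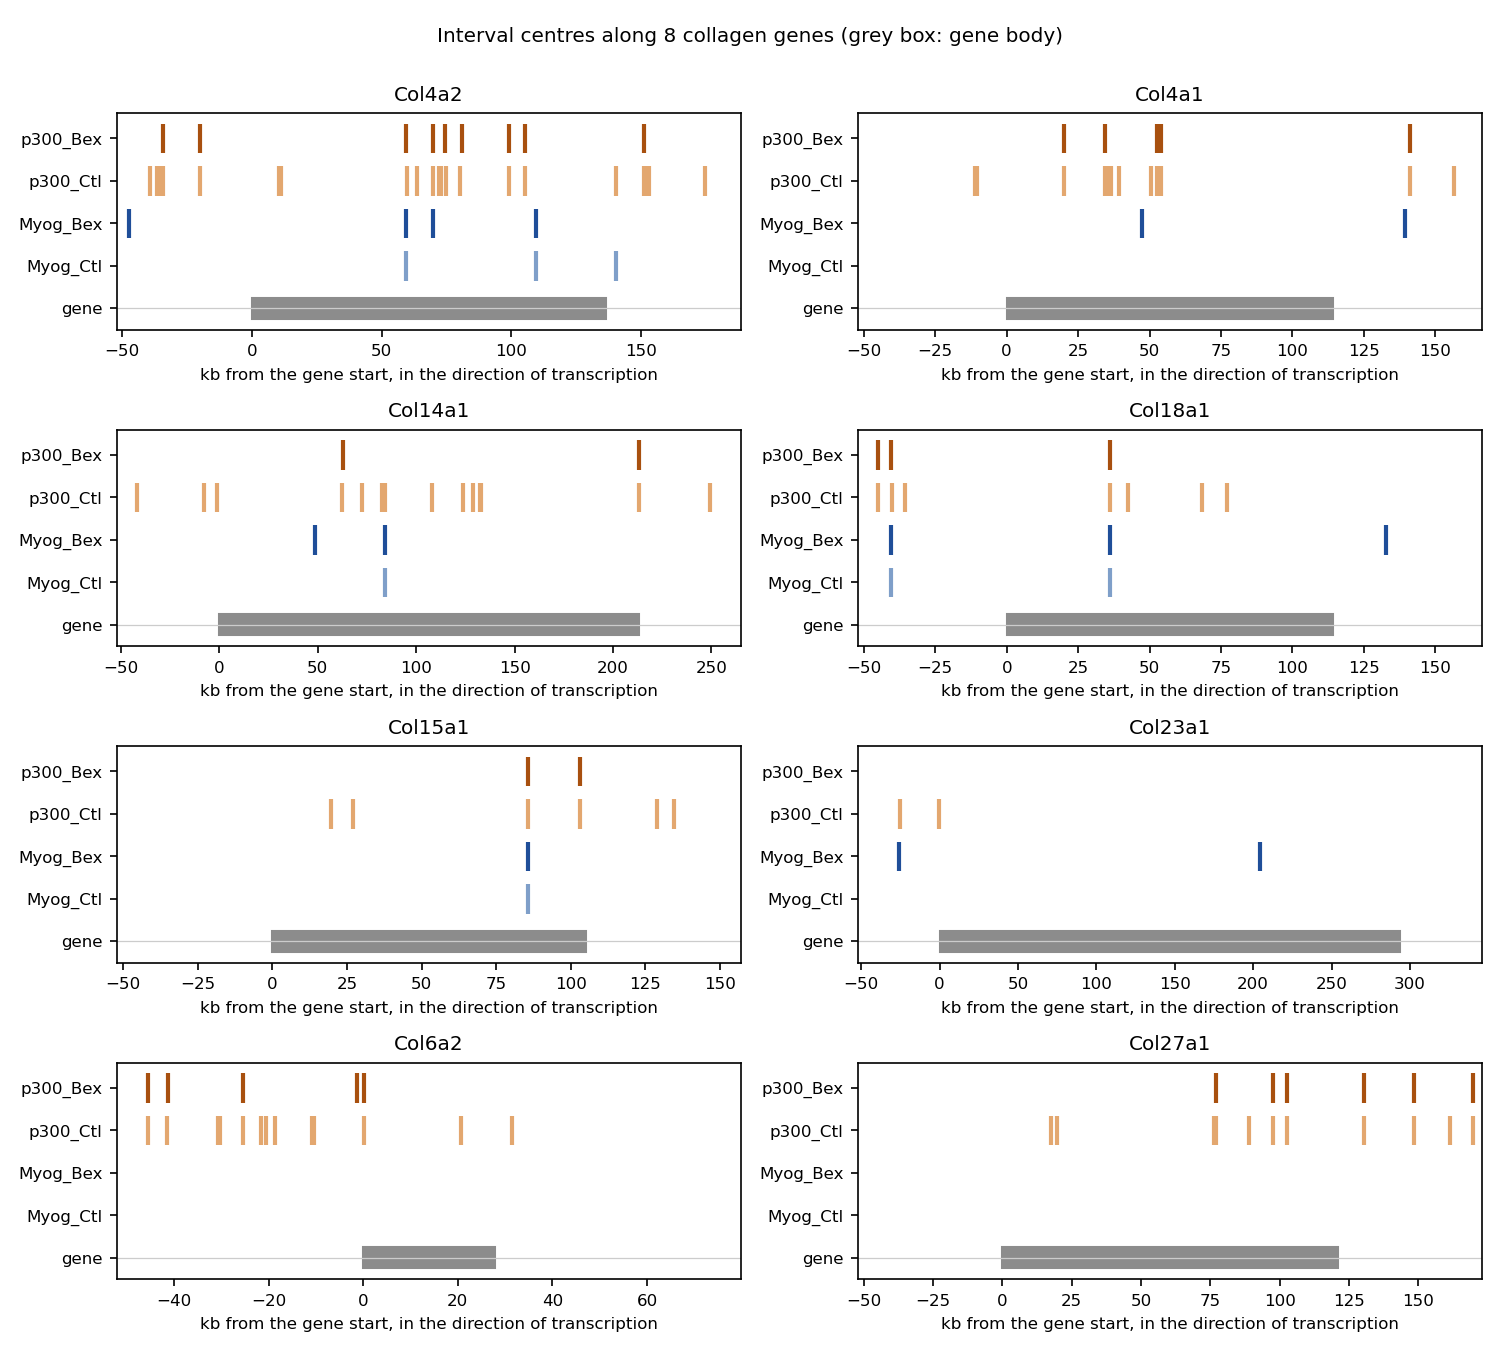
Centers of the intervals of each list (y axis, 1 row per list) along 8 collagen genes, in kb from the gene start in the direction of transcription (x axis), with the gene body as a grey box. At Col4a2, Col18a1 and Col15a1 myogenin and p300 marks line up inside the gene in both conditions, whereas Col6a2 and Col27a1 have p300 marks only.

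Both multiplexin genes, which encode collagens with cleavable C-terminal domains such as endostatin, had myogenin and p300 intervals in their windows in both conditions. The windows held 7.15 Myog_Ctl (1.48 to 20.9) and 9.54 Myog_Bex (2.6 to 24.4) intervals per Mb, against 3.13 and 3.45 per Mb over all genes, and both intervals include those values. They held 31.0 p300_Ctl (16.5 to 53.0) and 11.9 p300_Bex (3.87 to 27.8) intervals per Mb, against 10.5 and 4.32, and only the p300_Bex interval includes the value over all genes. Col18a1 (chr10:76514923-76629293, minus strand) had 2 Myog_Ctl, 3 Myog_Bex, 7 p300_Ctl and 3 p300_Bex intervals. Its intron 2 site, 36.3 kb from the gene start with 5 E-boxes, and a site 40.4 kb upstream were each called for myogenin in both conditions and overlapped p300 in both. Its other Myog_Bex interval lay 18.2 kb past the gene and within 1 kb of a TSS of Slc19a1, a folate transporter.

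Col15a1 (chr4:47221033-47326039, plus strand) had 1 Myog_Ctl, 1 Myog_Bex, 6 p300_Ctl and 2 p300_Bex intervals. The single myogenin site, in intron 28 at 85.8 kb (chr4:47306601-47307011 with bexarotene), was shared and overlapped p300 in both conditions. It was the longest Myog_Bex interval inside a collagen gene at 411 bp and held 2 E-boxes.

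The FACIT genes, whose products attach to the surface of fibrils, had 23.6 p300_Ctl (17.2 to 31.6) and 7.88 p300_Bex (4.41 to 13.0) intervals per Mb. Col14a1 (chr15:55139305-55352358, plus strand) had 1 Myog_Ctl, 2 Myog_Bex, 14 p300_Ctl and 2 p300_Bex intervals. Its p300 count was the second highest of the family in control, and 12 of the 14 control intervals were not called with bexarotene. The rank is of raw counts, since its window held 44.7 p300_Ctl intervals per Mb, against 102 at Col6a2 and 56.5 at Col6a3. The shared myogenin site in intron 14 (chr15:55223370-55223541 in control) overlapped a control-only p300 interval of 497 bp, so myogenin was called there in both conditions and p300 only in control. The bexarotene-only myogenin site in intron 5, at 48.5 kb, held 2 CAGCTG sites and no p300 interval overlapped it in bexarotene-treated cells.

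Col19a1, a long FACIT gene, had 3 Myog_Ctl, 1 Myog_Bex, 5 p300_Ctl and 2 p300_Bex intervals. All 3 of its myogenin sites were intronic. The one in intron 16 (chr1:24371734-24371964 in control) was shared, those in intron 18 (chr1:24343034-24343205) and intron 10 (chr1:24516311-24516482) were control-only, and the intron 10 site overlapped p300_Ctl. Col9a2, a cartilage chain, had 1 Myog_Ctl, 0 Myog_Bex, 5 p300_Ctl and 1 p300_Bex intervals, and its myogenin interval lay 136 bp from a TSS of Smap2. The other 6 FACIT genes had no myogenin interval, and their p300_Ctl counts ranged from 0 to 8.

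The p300 intervals of the type VI class lay mostly at Col6a2 and Col6a3, and its other 4 genes had 1 or 2 p300_Ctl intervals each. The class windows held 27.3 p300_Ctl (17.7 to 40.3) and 10.9 p300_Bex (5.24 to 20.1) intervals per Mb, with a single Myog_Ctl interval and 0 Myog_Bex intervals in 0.915 Mb, which allows up to 4.03 per Mb (exact Poisson upper bound). The Poisson intervals of both myogenin densities include the values over all genes. Col6a2 (chr10:76058507-76086375, minus strand) had 13 p300_Ctl and 5 p300_Bex intervals and no myogenin. Of its p300_Ctl intervals, 10 lay upstream of the gene, on the side of its neighbor Col6a1, and 1 shared interval was centered within 1 kb of its own TSS. Col6a3 had 1 Myog_Ctl, 0 Myog_Bex, 10 p300_Ctl and 4 p300_Bex intervals, with 4 of the p300_Ctl intervals in intron 1. Its myogenin interval lay 32.5 kb past the gene and overlapped p300_Ctl.

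The fibrillar genes had 26.1 p300_Ctl (19.6 to 34.0) and 11.1 p300_Bex (7.04 to 16.7) intervals per Mb, and 3.86 Myog_Ctl (1.67 to 7.61) and 1.93 Myog_Bex (0.526 to 4.95) intervals per Mb. At least 1 p300_Ctl interval was found near 10 of the 11, against 53.7% of all protein-coding genes. The median was 6 per gene, against 4 over all collagen genes and 1 over all protein-coding genes. Col27a1 (chr4:62875038-62996025, plus strand), a fibrillar chain of cartilage, had 11 p300_Ctl and 6 p300_Bex intervals and no myogenin. All 6 of its p300_Bex intervals were also called in control, and 2 of them lay within 1 kb of the TSSs of Orm1 and Orm2, genes for acute phase proteins. Col24a1 had 1 Myog_Ctl, 1 Myog_Bex, 10 p300_Ctl and 3 p300_Bex intervals. Its intron 24 myogenin interval (chr3:145083477-145083648) was control-only and overlapped a shared p300 interval.

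Col1a1, the main chain of type I collagen, had 1 Myog_Ctl, 1 Myog_Bex, 6 p300_Ctl and 4 p300_Bex intervals, and none of the 4 lists had an interval inside the gene. The control-only myogenin interval lay 22.6 kb upstream with p300_Ctl, and the bexarotene-only interval lay 36.8 kb past the gene, near the start of Ppp1r9b. Col5a1 had 2 Myog_Ctl, 0 Myog_Bex, 6 p300_Ctl and 2 p300_Bex intervals. Both of its myogenin intervals were control-only, and the intron 4 interval printed above held 3 E-boxes and no p300. Col5a3 had 0 Myog_Ctl, 1 Myog_Bex, 3 p300_Ctl and 1 p300_Bex intervals, and its bexarotene-only myogenin interval, 16.0 kb upstream, overlapped p300_Bex.

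Col11a2 had 4 Myog_Ctl, 1 Myog_Bex, 1 p300_Ctl and 0 p300_Bex intervals, the most Myog_Ctl intervals of any collagen gene. None of the 4 was shared, and 3 of them lay upstream within 1 kb of TSSs of other genes: Ring1, a Polycomb protein, H2-Ke6, and Rxrb, which encodes a retinoid X receptor. The Rxrb interval (chr17:34169428-34169599) lay 168 bp from its TSS and 6.87 kb upstream of Col11a2. The remaining control-only interval (chr17:34206098-34206598) and the bexarotene-only interval (chr17:34205918-34206085) lay 2.72 kb and 2.37 kb past the gene and did not overlap each other. In such gene-dense windows an interval cannot be assigned to the collagen gene by position alone.

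The short-chain and anchoring collagens had 26.8 p300_Ctl (15.3 to 43.6) and 11.7 p300_Bex (4.72 to 24.2) intervals per Mb. Col8a1, a chain of vascular and corneal matrix, had 10 p300_Ctl and 3 p300_Bex intervals and no myogenin, with 6 of the p300_Ctl intervals in its first intron. Col8a2 had 1 Myog_Ctl, 4 Myog_Bex, 5 p300_Ctl and 4 p300_Bex intervals. The 4 Myog_Bex intervals lay 25.7 to 30.3 kb upstream of Col8a2, near the starts of Mtap7d1 and Trappc3, 1 of them was shared, and none held an E-box within 50 bp of the center.

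The 4 transmembrane collagens had fewer p300 intervals per Mb than the other classes with more than 1 gene. Their windows held 5.39 p300_Ctl (2.17 to 11.1) and 2.31 p300_Bex (0.476 to 6.75) intervals per Mb, which is 0.515 and 0.535 times the value over all genes, and 3.08 Myog_Ctl and 3.08 Myog_Bex intervals per Mb. Both p300 intervals include the densities over all genes, 10.5 and 4.32 per Mb. The density of p300_Ctl in every other class with more than 1 gene was 2.26 to 2.96 times that over all genes. Col13a1 had 2 Myog_Ctl and 1 Myog_Bex intervals and no p300 in either condition. Its shared myogenin site in intron 2 held 4 E-boxes, and a control-only site lay in intron 35 (chr10:61318022-61318193). Col17a1 had 2 Myog_Ctl, 1 Myog_Bex, 2 p300_Ctl and 0 p300_Bex intervals, and neither p300 interval lay inside the gene. Col23a1 had 0 Myog_Ctl, 2 Myog_Bex, 2 p300_Ctl and 0 p300_Bex intervals, and its intron 2 myogenin site, 204 kb from the gene start, was bexarotene-only. The myogenin sites with 4 to 7 E-boxes in these 3 genes thus had no p300 interval on them. Col25a1, a collagen of neurons named here after its values were seen, had no myogenin and 3 p300 intervals in each condition, all in intron 2 and all shared.

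Most intervals lay in introns or outside the genes rather than at collagen start sites. Of the 26 Myog_Ctl intervals, 13 were intronic, 9 upstream and 4 downstream of the nearest member, and of the 25 Myog_Bex intervals 13 were intronic, 7 upstream and 5 downstream. Of the 193 p300_Ctl intervals, 104 were intronic, 3 exonic, 48 upstream, 37 downstream and 1 inside a gene but outside its reference transcript. Collagen gene bodies held 50.0% (29.9 to 70.1) of the Myog_Ctl and 52% (31.3 to 72.2) of the Myog_Bex intervals near collagens, where protein-coding gene bodies held 55.8% and 54.5% of the whole lists. For p300 the shares were 56.0% (48.6 to 63.1) in control and 52.5% (41.0 to 63.8) with bexarotene, against 48.8% and 48.3%. The whole lists also include intervals far from any gene, and all of these exact intervals include the whole-list share. No myogenin interval was centered within 1 kb of a TSS of a collagen gene in control (0 of 26, exact upper bound 13.2%) or with bexarotene (0 of 25, exact upper bound 13.7%). Counted over genes, 0 of 43 allows up to 8.22%, which includes the 6.08% and 3.74% of all protein-coding genes that had such an interval. Within 1 kb of a TSS of any gene lay 23.1% of Myog_Ctl and 12% of Myog_Bex intervals near collagens, against 24.2% and 12.5% of the whole lists. A p300_Ctl interval was centered within 1 kb of any TSS of 8 collagen genes (18.6%, against 10.7% of all genes): Col3a1, Col6a2, Col6a5, Col8a2, Col12a1, Col16a1, Col18a1 and Col23a1. Those of Col8a2, Col16a1 and Col18a1 lay at internal transcript starts, 14.4, 29.7 and 77.0 kb from the gene start. With bexarotene such an interval was found at 3 genes (6.98%, against 5.24%), Col6a2, Col6a5 and Col12a1, all with a shared interval. Several of these genes were named after their values were seen. Promoter intervals within 1 kb of any TSS made up 8.29% (4.81 to 13.1) of p300_Ctl intervals near collagens and 11.0% of the whole list.

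Overlap of myogenin with p300 near collagens was counted within each condition. In control, 11 of 26 myogenin intervals (42.3%, 23.4 to 63.1) overlapped a p300_Ctl interval, against 33.0% of the whole list. With bexarotene it was 6 of 25 (24.0%, 9.36 to 45.1), against 25.6%. The bexarotene value was 12% when each interval had to cover 50% of the other and 32% with p300_Ctl in place of p300_Bex. Seen from p300, 5.70% (2.88 to 9.97) of p300_Ctl intervals near collagens overlapped myogenin, against 8.79% of the whole list, and 7.50% (2.80 to 15.6) of p300_Bex intervals did, against 18.5%. The exact interval of the p300_Bex share near collagens lies below its whole-list share. A p300 interval of either condition lay on 5 of the 10 shared myogenin regions, on 6 of the 16 control-only regions and on 3 of the 15 bexarotene-only regions. Over whole lists the shares were 50.4% of shared Myog_Ctl intervals, 22.8% of control-only and 30.9% of bexarotene-only intervals.

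The E-box was counted separately for myogenin intervals inside collagen genes and in their flanks. Near collagens, 15 of 26 Myog_Ctl (57.7%, 36.9 to 76.6) and 19 of 25 Myog_Bex intervals (76%, 54.9 to 90.6) held an E-box within 50 bp of the center, against 47.7% and 60.3% of the whole lists. Inside collagen gene bodies it was 11 of 13 Myog_Ctl (84.6%, 54.6 to 98.1) and 13 of 13 Myog_Bex intervals (exact lower bound 75.3%), against 46.3% and 59.3% of the intervals inside any protein-coding gene. Outside the bodies it was 4 of 13 (30.8%, 9.09 to 61.4) and 6 of 12 (50.0%, 21.1 to 78.9), against 49.4% and 61.5% of the intervals outside protein-coding genes. The sets are unlike, since the flanks include intervals inside other genes near their TSSs, such as Rxrb and Smap2. The background leaves out intervals inside any protein-coding gene. Both exact intervals inside the bodies lie above the whole-list share, with the Myog_Ctl lower bound at 54.6%, and both intervals in the flanks include theirs, while the ranges for bodies and flanks overlap each other. This split was singled out after its values were seen, and the lists share part of these sites. No myogenin interval inside a collagen body lay within 1 kb of a TSS, against 24.2% of Myog_Ctl and 12.5% of Myog_Bex whole lists. The E-box shares were not matched for this difference.

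AP-1, the Fos and Jun dimer motif, and the E-box were found in similar shares of the p300 intervals near collagens when the same window was used. The motifs differ in length and in the number of sequences searched, and how often each occurs by chance was not counted. Within 100 bp of the center, 62 of 193 p300_Ctl intervals near collagens (32.1%, 25.6 to 39.2) held an AP-1 motif, against 27.8% of the whole list, and 35.0% (24.7 to 46.5) of p300_Bex intervals did, against 27.1%. The E-box was found within 50 bp of the center in 18.7% (13.4 to 24.9) of p300_Ctl and 25% (16.0 to 35.9) of p300_Bex intervals, against 19.6% and 25.2%. In the same window of 50 bp, AP-1 was found in 18.7% (13.4 to 24.9) of p300_Ctl and 23.8% (14.9 to 34.6) of p300_Bex intervals near collagens, against 18.4% and 18.2% of the whole lists. With the 100 bp window for AP-1, 10 of the 193 p300_Ctl intervals held both motifs and 105 held neither. At least 1 of these motifs was held by 45.6% (38.4 to 52.9) of p300_Ctl and 51.25% (39.8 to 62.6) of p300_Bex intervals near collagens, against 42.6% and 46.4% of the whole lists, and both exact intervals include the whole-list share.

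**Figure D4:**
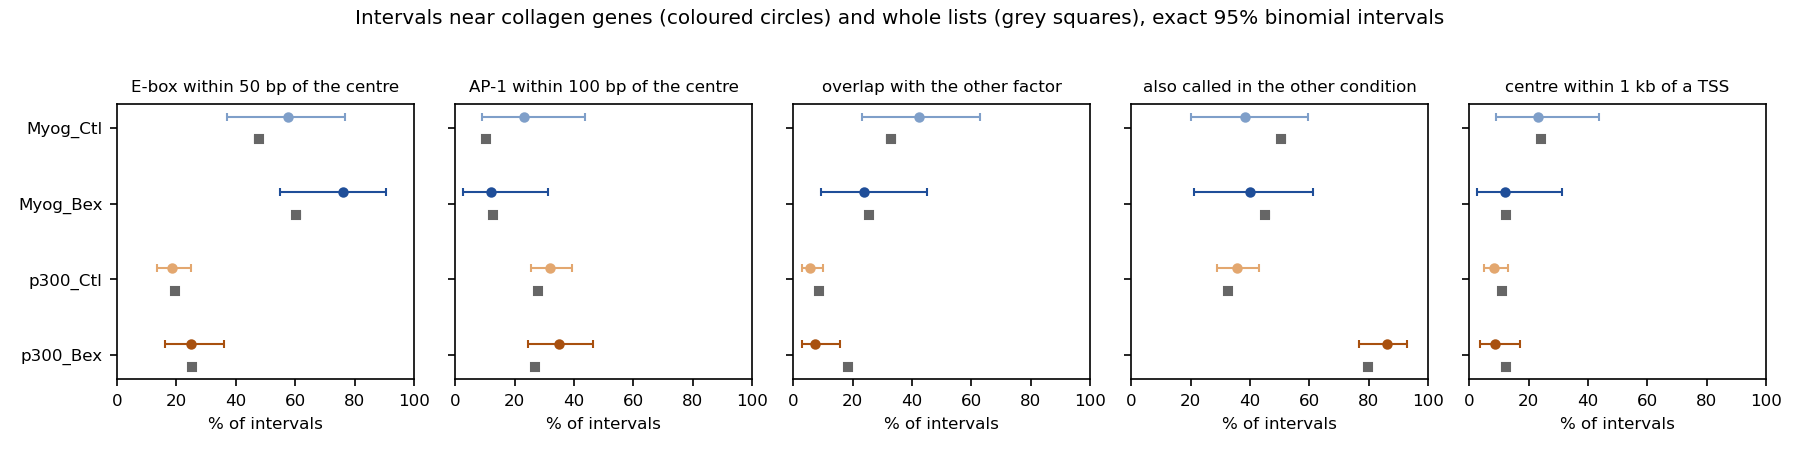
Share of intervals (x axis, %) of each list (y axis) with an E-box, with an AP-1 motif, overlapping the other factor in the same condition, also called in the other condition, and within 1 kb of a TSS. Colored circles are intervals near collagen genes (26, 25, 193 and 80 from top to bottom), grey squares are whole lists and bars are exact 95% binomial intervals. For most lists and measures the bars of the collagen intervals include the whole-list share.

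Interval length, the closest measure of peak size in these lists, differed between the overlap classes. Each list has a smallest length at which many intervals sit. Near collagens, 14 of 16 control-only Myog_Ctl intervals (87.5%) and 9 of 15 bexarotene-only Myog_Bex intervals (60.0%) were at the smallest length of their list, against 3 of 10 shared intervals (30%) in each list. For p300, 52.4% of control-only and 11.6% of shared p300_Ctl intervals were at the smallest length. The median shared p300_Ctl interval was 328 bp and the median control-only interval 159 bp. Whole lists showed the same order, with 46.2% of control-only and 9.72% of shared p300_Ctl intervals at the smallest length.

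Genes for the proteins that make, cross-link, bind and degrade collagen were counted in the same way. Of 47 such genes, 46 were matched, and 20 of them had a Myog_Ctl, 17 a Myog_Bex, 30 a p300_Ctl and 28 a p300_Bex interval within 50 kb, with a median gene body of 25.8 kb. These are 43.5% (28.9 to 58.9), 37.0% (23.2 to 52.5), 65.2% (49.8 to 78.6) and 60.9% (45.4 to 74.9) of the genes, against 32.4%, 33.0%, 53.7% and 35.2% of all protein-coding genes. Of these exact intervals, only that for p300_Bex lies above the share over all genes, and the same background applies to the smaller groups that follow. Among the prolyl and lysyl hydroxylases, which modify the chains in the endoplasmic reticulum, 6 of 10 had a Myog_Ctl and 5 a Myog_Bex interval. P4ha2, a prolyl 4-hydroxylase subunit, had 5 Myog_Ctl, 7 Myog_Bex, 5 p300_Ctl and 1 p300_Bex intervals, more myogenin than any collagen gene. Lepre1, a prolyl 3-hydroxylase, had 2 Myog_Ctl and 3 Myog_Bex intervals, Leprel2, its relative, had 1 and 3, and P4ha1 had 2 and 1.

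Among chaperones and export factors, 4 of 7 had a Myog_Ctl and 3 a Myog_Bex interval. Serpinh1, the collagen chaperone HSP47, had 4 Myog_Ctl, 4 Myog_Bex, 5 p300_Ctl and 1 p300_Bex intervals. Fkbp10, a collagen prolyl isomerase, had 2 Myog_Ctl and 1 Myog_Bex intervals, and Glt25d1, a collagen galactosyltransferase, had 1 and 2.

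Among processing and cross-linking genes, 3 of 11 had a Myog_Ctl, 2 a Myog_Bex, 9 a p300_Ctl and 7 a p300_Bex interval. Adamts14, a procollagen N-proteinase, had 4 Myog_Ctl, 3 Myog_Bex, 7 p300_Ctl and 2 p300_Bex intervals. Of the lysyl oxidase genes, Loxl1 had 0 Myog_Ctl, 3 Myog_Bex, 11 p300_Ctl and 7 p300_Bex intervals, Loxl2 had 2, 0, 10 and 2, and Loxl3 had 2, 0, 4 and 1. Lox and Loxl4 had no myogenin interval. Myogenin was thus called only with bexarotene at Loxl1, as at 9.02% of all protein-coding genes. It was called only in control at Loxl2 and Loxl3, as at 8.44% of all genes. With 1 library per condition, a difference between these genes was not tested.

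Among receptors, 4 of 7 had a Myog_Ctl and 3 a Myog_Bex interval, with 3 and 2 at Ddr1, a collagen-activated receptor kinase, and 1 and 2 at Itga11, an integrin chain for fibrillar collagen. The 5 collagenases and gelatinases had no Myog_Ctl interval, and 2 of them had a Myog_Bex interval. Of 6 fibril-binding matrix proteins, 3 had a Myog_Ctl and 2 a Myog_Bex interval: Sparc, a collagen chaperone of the matrix, had 3 Myog_Ctl and 0 Myog_Bex intervals, Fmod, the fibril-binding fibromodulin, had 2 and 2, and Tgfbi had 1 and 3.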

How the data were processed

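Myogenin and p300 were measured by ChIP-seq in C2C12 cells. Per the labels and the study's methods, BWA (myogenin) or Bowtie (p300) placed the reads on mm9, Picard dropped duplicates, and the authors called peaks library by library with HOMER in its factor style. The deposited lists hold chromosome, start and end of each peak and no count, score or signal, so the authors' threshold could not be changed and depth is not known from them. Starts were read as counted from 0 and are printed counted from 1.

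Gene bodies, introns of the transcript with the longest span per gene and TSSs of protein-coding transcripts were taken from GENCODE vM1 (NCBIM37, the assembly of mm9), and sequences from that genome. Intervals were assigned to a gene when they touched its body or 50 kb on either side, and a shared interval overlapped one of the other condition by at least 1 bp. Motifs were counted within 50 bp (E-box) or 100 bp (AP-1) of the interval center, and promoters were within 1 kb of a TSS. Backgrounds are the same counts over all 22380 protein-coding genes, the same density over their merged windows, and the same shares over the whole list. Overlap, merging, motif and interval functions recovered known answers on simulated data. Python 3.11.15, numpy 2.4.6, pandas 2.3.3, scipy 1.17.1 and matplotlib 3.10.9 were used.

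No test was made, because there was 1 library per condition and intervals are not replicates. Alternatives were other windows, the nearest TSS, longer intervals only, a reciprocal overlap of 50% and other motif and promoter limits. Named collagen genes are those with a myogenin interval, or with at least 10 p300_Ctl intervals. Positions are given for myogenin intervals in a gene body or up to 10 kb outside it, sequences for the 10 of these with most E-boxes, and pathway genes are named with at least 2 myogenin intervals in a list. Of overlapping intervals among the 10, the one with more E-boxes, or else the longer, was printed. The added Col4a2 site did not follow this rule. Its Myog_Ctl interval of 275 bp was printed, although the overlapping Myog_Bex interval was 375 bp long and also held 1 E-box. The members and lists were chosen with earlier results of these data known.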

Additional observations from a re-analysis of the deposited data

How the results depend on the processing

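Of 103 recomputed summary values, 82 stayed within 1.5 times the count or within the counting interval of the reported value, and 21 moved. All 24 recomputed density ratios were among the 82, and the p300 ratios ranged from 1.71 to 2.31. Counting only gene bodies gave 13 Myog_Ctl, 13 Myog_Bex, 108 p300_Ctl and 42 p300_Bex intervals, 9 genes with Myog_Ctl and 18 with p300_Bex, a bexarotene-only myogenin share of 38.5% and an E-box share of 100% in Myog_Bex. The E-box share was 94.1% with a window of 20 kb. A window of 100 kb gave 43 Myog_Ctl and 42 Myog_Bex intervals. With only intervals longer than the smallest of their list, 9 Myog_Ctl, 13 Myog_Bex, 120 p300_Ctl and 43 p300_Bex intervals remained, near 7 genes for Myog_Ctl and 9 for Myog_Bex. The promoter share of p300_Ctl was 4.57% among intervals nearest to a collagen TSS and 13.5% when promoters reached 2 kb. The control-only p300 share was 73.6% with a reciprocal overlap of 50%, and the AP-1 share of p300_Ctl was 18.7% within 50 bp. Counts of the 22 named genes moved by more than 1.5 times in 172 of 440 recomputed values. The causes were not tested. The alternatives for the density ratios were added after seeing the data.

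No paired analysis was possible because each condition has 1 library and no result comes from a test. The lists hold no tag counts, so weak binding below the authors' threshold, binding strength at shared sites and the depth of each library were not measurable from the lists. The p300_Bex list is the shorter one, and for it depth, calling and treatment cannot be told apart. Distance does not assign an interval to a gene, and expression was not analysed here.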
